A study of Homo sapiens with 2 samples.

Results

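SLCO1B1, SLCO1B3, SLCO2B1, SLC22A3, SLC22A7, SLC22A9, SLC10A1, SLC47A1 and SLC47A2 encode solute carriers that move bile acids, drugs and other organic ions across the membranes of liver cells. These 9 genes were chosen by name, with earlier results of these data known. They were taken out of 36601 genes counted in each library, and all 9 were present in both. Their levels and their detection in single cells were read in 3 classes of cells set by the albumin transcript ALB: ALB-high cells with at least 50 ALB UMIs per 10000 UMIs, ALB-intermediate cells with 5 to under 50, and other cells with fewer than 5. A UMI is a molecular tag that marks 1 captured transcript.

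The cells were HepaRG, an established human hepatic line supplied as a terminally differentiated culture and used in toxicology in place of primary hepatocytes. The study exposed them to reference chemicals that provoke stress, and only its vehicle group was used here: 7 days of culture, then 0.1% DMSO for 24 h, dissociation, fixation and capture on a 10x Genomics droplet kit that reads transcript 3′ ends, at an input of 10000 cells. Of this group 2 libraries were used, called replicates 1 and 2. Both carry the same biological replicate label, so every SD and p-value below describes the spread between these libraries and classes, which may be technical, and not that between independent cultures.

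After filtering, replicate 1 held 4454 cells with a median of 17568 UMIs and replicate 2 held 4894 cells with a median of 10407 UMIs, and 10 cell barcodes occurred in both. ALB-high cells numbered 306 (6.87%) and 407 (8.32%) in replicates 1 and 2, ALB-intermediate cells 424 (9.52%) and 493 (10.1%), and other cells 3724 (83.6%) and 3994 (81.6%). The labels call the cells hepatocytes. All 18 hepatocyte markers apart from ALB had UMIs in ALB-high and other cells of both libraries, and 18 and 16 did in ALB-intermediate cells. Their summed level was 12388 to 13071 counts per 1000000 UMIs (CPM) in ALB-high cells. It was 3309 to 3312 CPM in ALB-intermediate and 659 to 709 CPM in other cells. Most cells of this culture therefore lay far below the marker levels of the ALB-high class. Other measures moved with the classes too. Median mitochondrial shares were 13.5% and 13.6% in ALB-high cells and 8.43% and 8.61% in other cells, and median UMIs were 20653 and 12441 against 17347.5 and 10178. Proliferation markers (14 genes) summed to 809 to 870 CPM in ALB-high and 2187 to 2208 CPM in other cells, and 12 mesenchymal markers to 59.5 to 70.5 and 262 to 275 CPM. Of these 12, 9 and 10 had UMIs in ALB-high cells, 10 and 10 in ALB-intermediate cells and all 12 in other cells. The collagen COL1A2 and THY1 were at 0 in both ALB-high and ALB-intermediate cells. Biliary markers (10 genes) summed to 350 to 378 and 717 to 724 CPM, and endothelial and immune markers stayed under 40 CPM in each class. The part of these differences in the transporter results was not tested, beyond the alternatives given with the results. Within 20% of the limit at 50 ALB UMIs lay 65 and 98 cells, and within 20% of the limit at 5 lay 83 and 91.

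Hepatocytes take up solutes from blood through carriers of the sinusoidal membrane. Organic anion transporting polypeptides (the SLCO genes) bring in bilirubin, bile acids and drugs such as statins, the sodium taurocholate cotransporter SLC10A1 brings in conjugated bile acids and is the entry receptor of hepatitis B virus, and SLC22 carriers move organic cations or anions. The SLC47 genes encode proton exchangers (MATE proteins) that extrude organic cations, SLC47A1 mainly in liver and kidney and SLC47A2 mainly in kidney. Nuclear factors such as HNF4A and the bile acid receptor NR1H4 are known regulators of several of these genes.

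SLCO1B1 and SLCO1B3 are neighbouring copies on chromosome 12 that were both lower in ALB-intermediate than in other cells but went in opposite directions from ALB-intermediate to ALB-high cells, so the stretches before their start sites are shown side by side. Both are from RefSeq (GRCh38.p14), plus strand, 5′ to 3′, with the letters GTTAAT, on either strand, and their extension GTTAATNAT, which both stretches hold, in capitals.
SLCO1B1, chr12:21130944-21131193: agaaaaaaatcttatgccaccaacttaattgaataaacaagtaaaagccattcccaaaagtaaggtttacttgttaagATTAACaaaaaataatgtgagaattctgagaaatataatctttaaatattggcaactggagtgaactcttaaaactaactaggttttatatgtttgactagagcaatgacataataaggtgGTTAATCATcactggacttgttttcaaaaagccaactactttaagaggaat
SLCO1B3, chr12:20810455-20810704: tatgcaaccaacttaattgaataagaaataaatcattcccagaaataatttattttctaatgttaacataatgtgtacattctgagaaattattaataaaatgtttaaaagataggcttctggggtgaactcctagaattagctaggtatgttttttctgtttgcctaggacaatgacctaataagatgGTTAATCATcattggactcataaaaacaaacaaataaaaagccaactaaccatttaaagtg
The extended run of letters lay at position -51 before SLCO1B1 and at position -61 before SLCO1B3, counted from the start site, and SLCO1B1 held a further GTTAAT on the minus strand at position -172. Of 35116 promoter windows of 300 bases (250 before to 50 after the start) in the table, 0.792% held GTTAATNAT on either strand and 6.88% held GTTAAT. Over these windows the pair was identical at 216 of 339 aligned columns (63.7%). The table matched 6 of the 9 members, with 8 windows, and the other members with a window (SLCO2B1, SLC22A7, SLC10A1 and SLC47A2) had no GTTAAT in it. AGGTCA, a core motif of nuclear receptors, was in 13.8% of all windows and in those of SLCO1B3 (position -76, minus strand), SLC22A7 (-144, minus strand) and SLC10A1 (-149, plus strand). A match is only a match of letters, and counts of 3′ ends do not tell which start site a transcript used.

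The question of which cells of the culture carried each transporter was addressed by summing UMIs per class and library and comparing the 6 sums with edgeR's quasi-likelihood test, with the library as a block and Benjamini-Hochberg adjustment over 15814 genes. ALB-high against other cells, 6 of the 9 members were higher (SLC22A9, SLC22A7, SLC10A1, SLCO2B1, SLC22A3 and SLC47A1), 2 were lower (SLCO1B3 and SLC47A2) and SLCO1B1 did not pass. Of all genes tested, 32.1% were called higher and 30.2% lower in that comparison, so a call alone says little and the sizes carry the description. The members' median log2 fold change was 1.31, against 0.01 over all genes. ALB-intermediate against other cells, 4 members were higher and 2 lower, with 23.6% and 22.1% of all genes called higher and lower, and medians of 0.33 and 0.01. ALB-high against ALB-intermediate cells, 6 were higher and 2 lower, with 16.5% and 15% of all genes, and medians of 1.35 and 0.00. All 9 members passed the filter on low counts, but SLC22A7, SLC22A9 and SLC10A1 did so only through the ALB-high sums, so the counts and medians above support nothing about the members. The remaining 6 gave 3 higher, 2 lower and 1 not called for ALB-high against other (median 0.22), 2, 2 and 2 for ALB-intermediate against other (0.19) and 3, 2 and 1 for ALB-high against ALB-intermediate (0.40). edgeR's scaling factors place fold changes above the ratios of CPM by 0.17 on the log2 scale for ALB-high against other, by 0.07 for ALB-intermediate against other and by 0.10 for ALB-high against ALB-intermediate. The 3 comparisons share their sums, so their calls are not independent of each other.

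**Figure D1:**
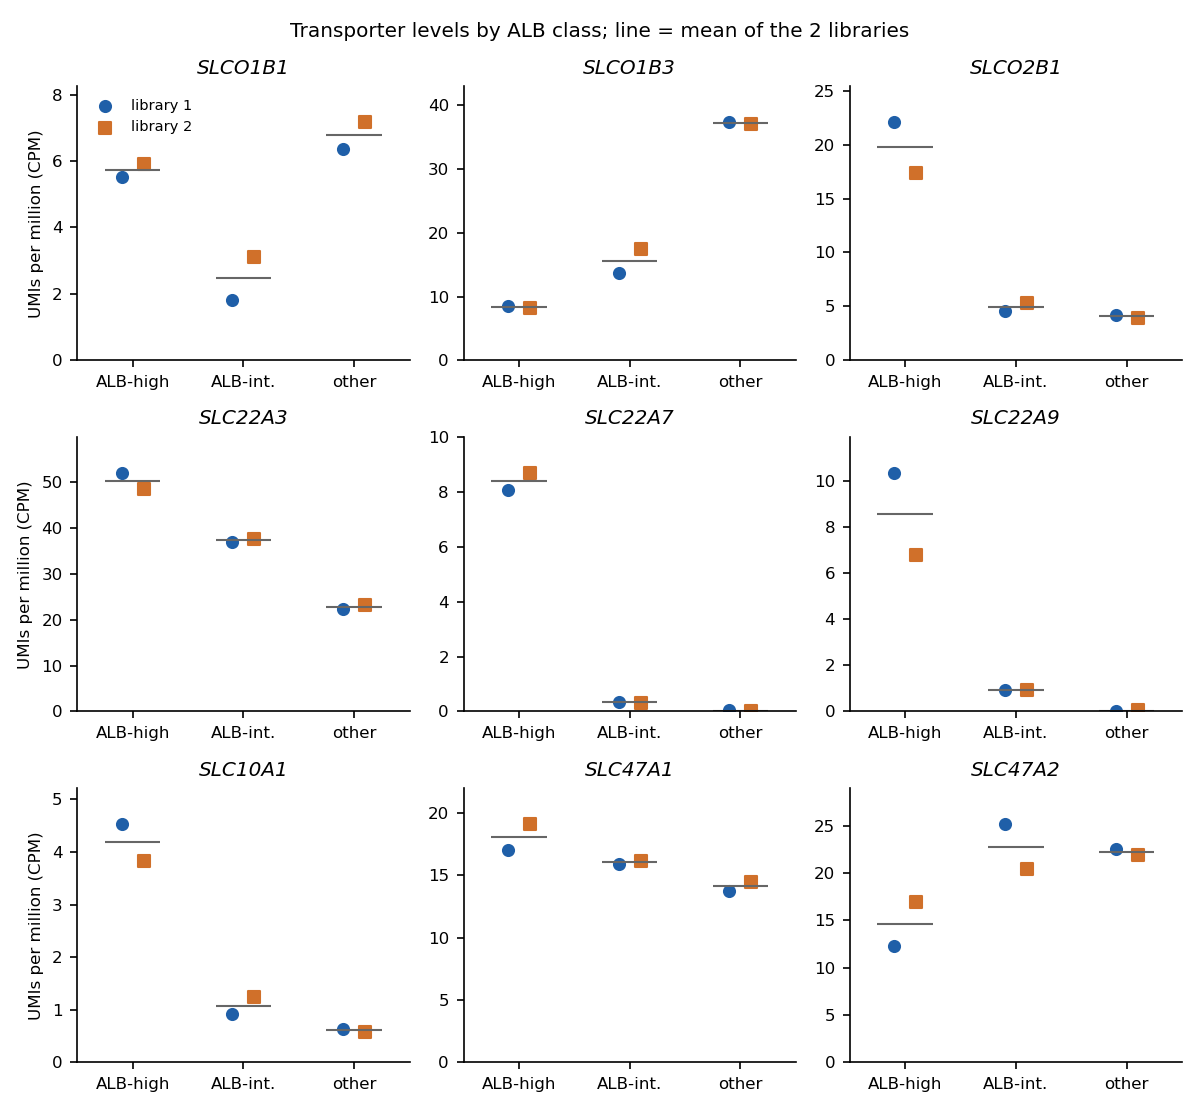
Level of each transporter (CPM, linear axis from 0) in ALB-high, ALB-intermediate and other cells; circles are replicate 1, squares replicate 2 and lines their mean. SLC22A7 and SLC22A9 sit above 6 CPM in ALB-high cells and under 1 CPM elsewhere, whereas SLCO1B3 is at 8.50 and 8.18 CPM in ALB-high cells and at 37.4 and 37.2 CPM in other cells.

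SLCO1B3 (chr12:20810702-20916911, plus strand, GRCh38 with GENCODE 29), a carrier of bilirubin glucuronides and drugs that in liver is restricted to hepatocytes, had its lowest level in ALB-high cells. Replicates 1 and 2 gave 8.50 and 8.18 CPM in ALB-high cells, 13.7 and 17.4 CPM in ALB-intermediate cells and 37.4 and 37.2 CPM in other cells. The classes did not overlap, and the order was the same in both libraries. The log2 fold change was -1.99 ± 0.12 (SE; edgeR adjusted p = 1.1e-16) for ALB-high against other, -1.22 ± 0.09 (adjusted p = 3.4e-13) for ALB-intermediate against other and -0.78 ± 0.17 (adjusted p = 0.00034) for ALB-high against ALB-intermediate. Without cells that held at least 2 proliferation-marker UMIs per 10000 the last of these was -0.68 (adjusted p = 0.18), and the first stayed between -2.46 and -1.83 over all 12 alternatives. Leaving out the proliferation-marker cells removed 3501 of 4454 and 3877 of 4894 cells. Over 10 bins of rising ALB level, SLCO1B3 fell from 39.8 and 36.9 CPM in cells under 0.5 ALB UMIs per 10000 to 5.9 and 2.4 CPM in cells with 200 or more. In other cells 39.9% and 28.6% of cells had an SLCO1B3 UMI; with every cell thinned to 4000 UMIs, to set depth equal, this was 11.9% (95% exact Clopper-Pearson interval 10.9 to 13.0%) and 12.6% (11.6 to 13.7%), against 1.31% (0.358 to 3.32%) and 2.74% (1.37 to 4.84%) in ALB-high cells. These intervals, like all below, cover counting error only. Thinning left out 1 and 5 ALB-high, 15 and 16 ALB-intermediate and 48 and 62 other cells that were shallower.

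SLCO1B1 (chr12:21131202-21239246, plus strand), the carrier of statins and unconjugated bile acids, was lowest in the ALB-intermediate class. It stood at 5.53 and 5.92 CPM in ALB-high, 1.83 and 3.11 CPM in ALB-intermediate and 6.36 and 7.18 CPM in other cells. ALB-high cells were below other cells in both libraries, but by little. The log2 fold change of ALB-high against other was -0.07 ± 0.19 (edgeR adjusted p = 0.752), and the ratio of CPM over both libraries was 0.854 with a 95% counting interval of 0.662 to 1.09. Its direction was not settled: the log2 fold change was 0.22 with ALB-high cells counted from 100 ALB UMIs, 0.37 without the proliferation-marker cells and 0.12 without 2 clusters with raised mesenchymal markers, none past the threshold. ALB-intermediate cells were lower than other cells by -1.43 ± 0.22 on the log2 scale (adjusted p = 1.8e-06) and ALB-high cells higher than ALB-intermediate cells by 1.35 ± 0.29 (adjusted p = 0.00033, and 0.26 in thinned cells). Over the ALB bins SLCO1B1 thus ran down and up again: 7.3 and 7.7 CPM in the lowest bin, 1.6 and 1.5 CPM from 10 to under 20 ALB UMIs, and 8.0 and 10.0 CPM in the top bin. The lowest of these values rest on 4 and 3 UMIs. In thinned cells 2.26% and 2.34% of other cells had a UMI, against 1.84% and 3.15% of mesenchymal-like cells (a cluster described below).

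**Figure D2:**
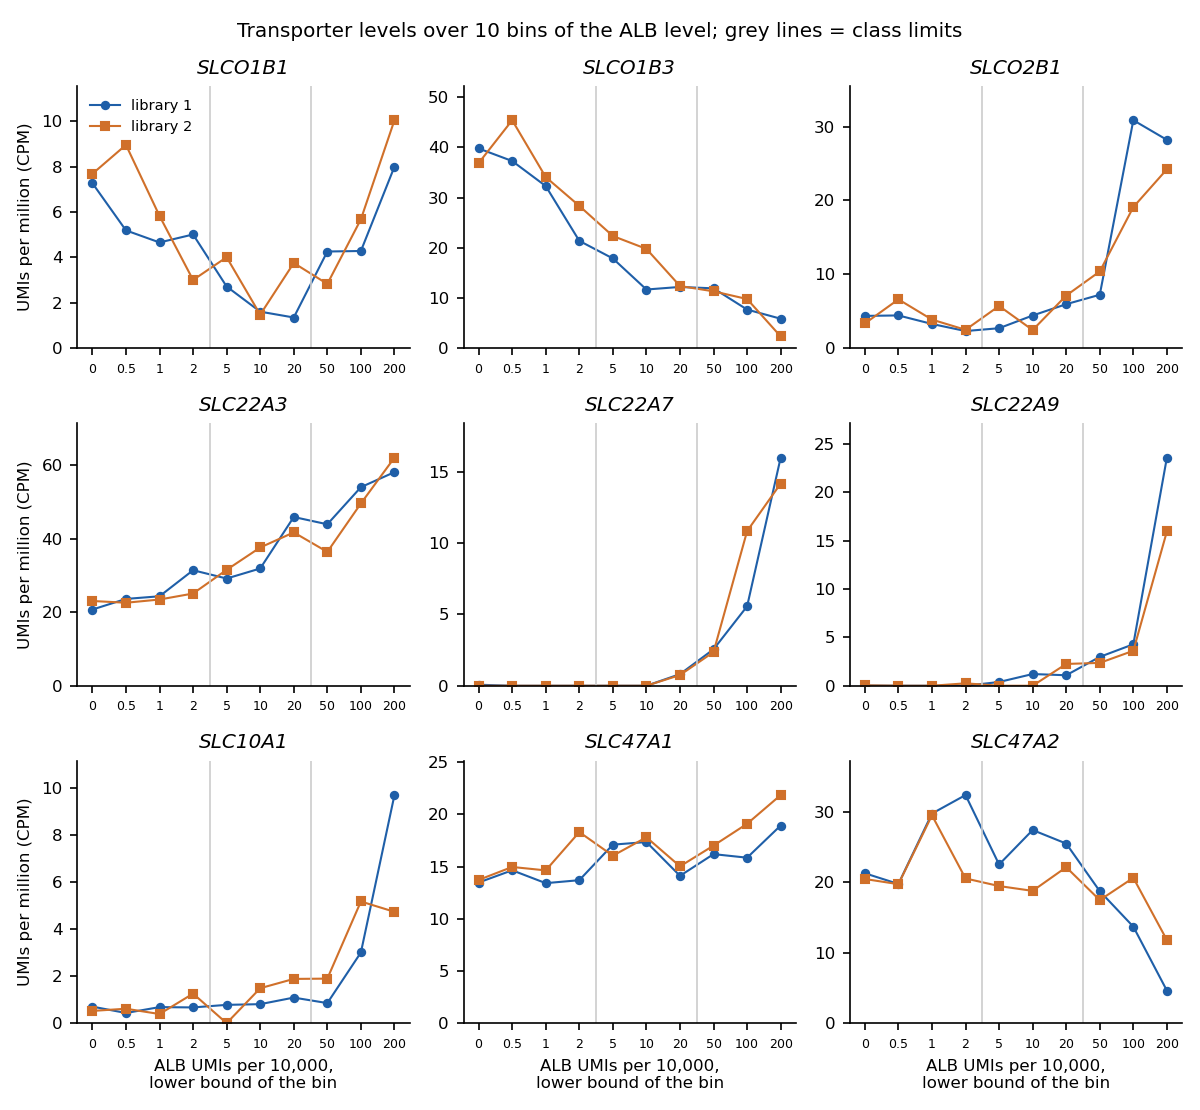
Level of each transporter (CPM, linear axis from 0) in 10 bins of the cells' ALB level (ALB UMIs per 10000, lower bound of each bin); grey lines mark the class limits at 5 and 50, and colours the 2 libraries. SLCO1B3 goes down along the bins, SLC22A3 goes up from 20.7 and 23.0 to 58.1 and 62.0 CPM, SLCO1B1 is lowest in the middle bins, and SLC22A7 and SLC22A9 are highest in the top bin.

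The share of SLCO1B1 in the summed UMIs of the neighbours was higher in ALB-high cells than in the other classes. SLCO1B1 made up 14.5% (95% interval 13.3 to 15.8%) and 16.2% (14.6 to 17.9%) of the summed SLCO1B1 and SLCO1B3 UMIs of other cells, 11.8% and 15.2% in ALB-intermediate cells, and 39.4% (29.7 to 49.7%) and 42.0% (31.1 to 53.5%) in ALB-high cells. In the bin with 200 or more ALB UMIs it was 57.6% (39.2 to 74.5%; 19 against 14 UMIs) and 81.0% (58.1 to 94.6%; 17 against 4 UMIs). The intervals of ALB-high and other cells did not overlap in either library. The share compares classes and not the level of SLCO1B1 with that of SLCO1B3. Between the genes lies SLCO1B7 (chr12:20962768-21092745), a related gene of the same strand, and read-through gene models that overlap all of these genes were not used here; how the authors' counting split reads among these near copies is not given in the sources used here, so their counts are uncertain to that extent. SLCO1B7 was at 2.83 and 5.05 CPM in ALB-high, 5.95 and 7.00 CPM in ALB-intermediate and 18.8 and 18.8 CPM in other cells, lower in ALB-high than in other cells by -2.13 ± 0.17 on the log2 scale (edgeR adjusted p = 5.5e-13).

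**Figure D3:**
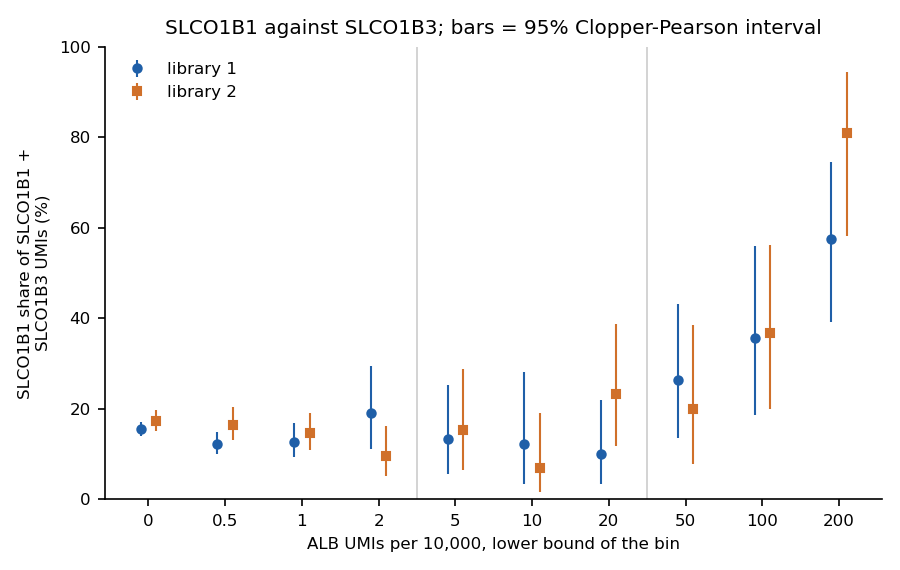
Share of SLCO1B1 among the summed SLCO1B1 and SLCO1B3 UMIs (percent) in 10 bins of the cells' ALB level (lower bound, ALB UMIs per 10000); bars are 95% Clopper-Pearson intervals for counting error. The share is between 7.0% and 23.3% in the bins below 50 and reaches 57.6% and 81.0% in the top bin.

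SLCO2B1 (chr11:75100563-75206549, plus strand), a carrier of steroid sulfates and drugs found in liver and intestine, was high in ALB-high cells alone among the classes. It stood at 22.1 and 17.4 CPM there, at 4.58 and 5.29 CPM in ALB-intermediate and at 4.17 and 3.97 CPM in other cells. ALB-high cells stood apart, and the other classes were close to each other. The log2 fold changes were 2.45 ± 0.14 (edgeR adjusted p = 3.2e-17) against other and 2.13 ± 0.19 (adjusted p = 1.8e-11) against ALB-intermediate cells, and 0.33 ± 0.20 (adjusted p = 0.186) between those classes. Over the bins SLCO2B1 stepped from 7.2 and 10.4 CPM between 50 and 100 ALB UMIs to 30.9 and 19.1 CPM between 100 and 200. In thinned cells 6.23% and 4.73% of ALB-high cells had a UMI, against 1.47% and 1.35% of other cells and 0.526% and 0.252% of mesenchymal-like cells. Its UMIs were uneven among cells, with up to 16 in 1 ALB-high cell of replicate 1.

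SLC22A7 (chr6:43295694-43305538, plus strand), an organic anion carrier, and SLC22A9 (chr11:63369789-63410294, plus strand), an organic anion carrier expressed almost only in liver, were close to absent outside the ALB-high class. SLC22A7 stood at 8.08 and 8.70 CPM in ALB-high, 0.343 and 0.311 CPM in ALB-intermediate and 0.0433 and 0 CPM in other cells. SLC22A9 stood at 10.3 and 6.79 CPM, 0.916 and 0.933 CPM, and 0.0144 and 0.0446 CPM. Other cells held 3 UMIs of each gene in all, so each fold is given with its counting interval. The ratio of ALB-high to other cells was 318 (106 to 1566; 107 against 3 UMIs) for SLC22A7 and 333 (111 to 1638; 112 against 3 UMIs) for SLC22A9, and that of ALB-intermediate to other cells was 12.5 (2.44 to 80.8; 5 against 3 UMIs) and 35.1 (9.80 to 191; 14 against 3 UMIs). Both genes passed the filter on low counts only through the ALB-high sums, so their calls had to come out higher there and support nothing. The edgeR adjusted p, given as a description, was 9.4e-19 and 3.1e-19 for ALB-high against other and 1.2e-10 and 1.4e-09 for ALB-high against ALB-intermediate.

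The detection of both genes in single cells was low even in the ALB-high class. SLC22A7 had a UMI in 12.7% and 9.34% of ALB-high cells and SLC22A9 in 14.7% and 6.88%, against 0.0806% and 0% and against 0.0269% and 0.0501% of other cells. In replicate 2 the 0 of 3994 other cells for SLC22A7 allows a share of cells with a UMI of up to 0.0751%. Mesenchymal-like cells had 0 UMIs of either gene in 764 and 813 cells, which allows up to 0.393% and 0.369%. After thinning to 4000 UMIs, SLC22A7 had a UMI in 2.62% and 3.23% of ALB-high cells and SLC22A9 in 2.62% and 0.746%. The last of these shares rests on 3 cells. No thinned other cell had a UMI of either gene. SLC22A7 overlaps CRIP3 on the opposite strand, and whether counting used strand is not given in the sources used here; CRIP3 stood at 1.84 and 1.57 CPM in ALB-high and 0.188 and 0.178 CPM in other cells.

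SLC22A3 (chr6:160348268-160452581, plus strand), the organic cation transporter OCT3, was present in all classes and followed ALB in steps. It stood at 52.0 and 48.4 CPM in ALB-high, 36.98 and 37.6 CPM in ALB-intermediate and 22.3 and 23.2 CPM in other cells. The classes did not overlap. The log2 fold change was 1.31 ± 0.07 (edgeR adjusted p = 2.6e-17) for ALB-high against other, 0.78 ± 0.08 (adjusted p = 1.1e-10) for ALB-intermediate against other and 0.53 ± 0.09 (adjusted p = 8e-06) for ALB-high against ALB-intermediate, each in 2 of 2 libraries. A UMI was found in 17.7% and 18.2% of thinned ALB-high cells, in 10.3% and 13.4% of ALB-intermediate cells and in 8.22% and 7.86% of other cells. Mesenchymal-like cells reached 9.74% and 10.1%, and the intervals in ALB-high cells were 13.6 to 22.5% and 14.5 to 22.3%.

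SLC10A1 (chr14:69775417-69797289, minus strand), the bile acid cotransporter, was rare in all classes. It stood at 4.54 and 3.83 CPM in ALB-high, 0.916 and 1.24 CPM in ALB-intermediate and 0.636 and 0.580 CPM in other cells, on 54, 16 and 70 UMIs over both libraries. Only the ALB-high class stood apart in level, and it alone took the gene past the filter on low counts. Calls of SLC10A1 as higher in that class therefore support nothing, and each adjusted p is given as a description. The log2 fold change was 2.94 ± 0.31 (edgeR adjusted p = 3.1e-10) against other and 2.09 ± 0.40 (adjusted p = 6.7e-05) against ALB-intermediate cells, while ALB-intermediate against other gave 0.85 ± 0.44 (adjusted p = 0.12). A UMI was found in 8.50% and 4.91% of ALB-high cells, and in 1.64% (0.534 to 3.78%) and 1.49% (0.550 to 3.22%) after thinning. In thinned ALB-intermediate cells it was 0.244% and 0.210%, against 0.354% and 0.280% of other cells and 0.263% and 0.126% of mesenchymal-like cells.

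The exchangers differed from the uptake carriers and from each other. SLC47A1 (chr17:19495385-19579034, plus strand) varied least over the classes: 17.0 and 19.1 CPM in ALB-high, 15.9 and 16.2 CPM in ALB-intermediate and 13.8 and 14.5 CPM in other cells. The classes did not overlap, but the steps were small. ALB-high against other gave 0.52 ± 0.11 on the log2 scale (edgeR adjusted p = 0.00012, and 0.22 in thinned cells), and ALB-high against ALB-intermediate 0.26 ± 0.13 (adjusted p = 0.147). ALB-intermediate against other gave 0.26 ± 0.11 (adjusted p = 0.0482), a call that only 3 of 12 alternatives kept, with -0.07 in thinned cells. The gene is overlapped by an antisense gene, AC025627.1, at 52.7 and 57.1 CPM in ALB-high and 55.7 and 53.5 CPM in other cells, and without strand their reads cannot be told apart. In thinned cells the shares with a UMI were 8.52% and 4.48% in ALB-high, 4.73% and 5.93% in other and 5.66% and 4.92% in mesenchymal-like cells. By this measure ALB-high cells lay below other cells in replicate 2.

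SLC47A2 (chr17:19678288-19718979, minus strand) was lower in ALB-high cells, at 12.3 and 16.9 CPM, than in ALB-intermediate cells, at 25.2 and 20.4 CPM, and other cells, at 22.5 and 21.9 CPM. The latter classes overlapped. ALB-high against other gave -0.46 ± 0.12 (edgeR adjusted p = 0.00103), and ALB-high against ALB-intermediate -0.59 ± 0.14 (adjusted p = 0.00141). In thinned cells these were -0.21 (adjusted p = 0.44) and -0.22 (adjusted p = 0.66), and without proliferation-marker cells the adjusted p of the latter was 0.098. The difference of ALB-high from other cells was larger without proliferation-marker cells (-1.22, adjusted p = 1.7e-06) and without the clusters with raised mesenchymal markers (-0.86, adjusted p = 2.6e-07). ALB-intermediate against other gave 0.12 ± 0.10 (adjusted p = 0.317), and turned to -0.60 (adjusted p = 0.024) without proliferation-marker cells and to -0.26 (adjusted p = 0.03) without the clusters with raised mesenchymal markers.

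**Figure D4:**
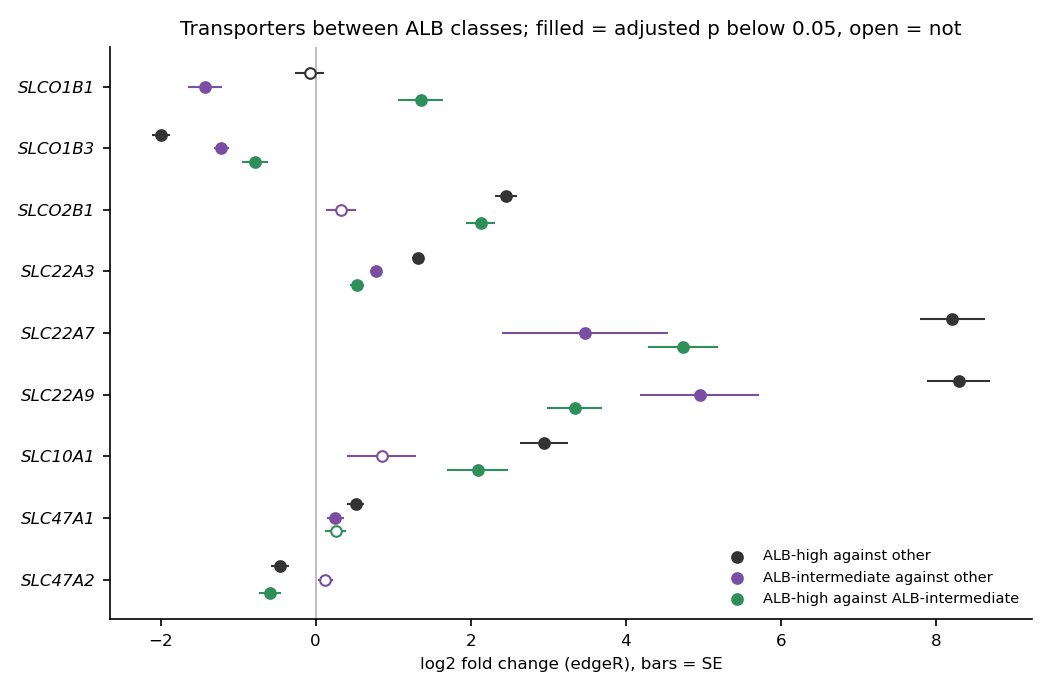
Log2 fold change (edgeR) of each transporter in 3 comparisons of ALB classes; bars are standard errors, filled points passed an adjusted p of 0.05 and open points did not. SLC22A9 and SLC22A7, with 3 UMIs each in other cells, lie farthest right for ALB-high against other, and SLCO1B3 is left of 0 in all 3 comparisons.

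Cells were also clustered, on genes that included neither the members nor ALB, into 10 clusters. The clusters were still not separate from the ALB classes. Cluster 7 below consisted of ALB-high cells (83.0% and 85.2% in replicates 1 and 2) and ALB-intermediate cells (17.0% and 14.8%). Cluster 7 (264 and 351 cells) was hepatocyte-like, with 13 of 19 hepatocyte markers raised, ALB among them. Cluster 3 (764 and 813 cells) was mesenchymal-like, with only COL3A1, PDGFRB, SPARC and DCN raised among 12 markers, and clusters 1, 2 and 5 were cycling-like. In cluster 3 the biliary marker KRT19 and the endothelial marker PECAM1 were raised too. Its biliary markers summed to 1231 CPM and its mesenchymal markers to 550 CPM, each the highest such sum of the 10 clusters. The others kept their numbers. Among named genes, cluster 0 was led by CXCL13, FGG and FGA, cluster 4 by SLC30A8 and CACNA2D1, and cluster 8 by IL1R2, SLC47A2, HP and NQO1. Of 19 hepatocyte markers, 4 were raised in cluster 0, 6 in cluster 4 and 7 in cluster 8. Cluster 6 had 4 mesenchymal and 10 proliferation markers raised, and cluster 9 held 11 and 22 cells only.

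SLC47A2 was concentrated in cluster 8, at 142 ± 9.01 CPM (SD, n = 2 libraries). That cluster held 5.95% and 5.33% of the cells and 34.1% and 29.4% of all SLC47A2 UMIs. Next came cluster 9 (127 ± 86.5 CPM, too spread to rank), then cluster 4 (33.9 ± 4.37 CPM) and cluster 1 (30.4 ± 4.01 CPM), which did not differ beyond their spread. The hepatocyte-like cluster was at 10.0 ± 4.13 CPM, the mesenchymal-like cluster at 4.68 ± 0.38 CPM and cluster 6 lowest at 1.68 ± 0.02 CPM. Within cluster 8 the level was high in both classes with at least 20 cells per library, at 150 and 141 CPM in its other cells and 142 and 101 CPM in its ALB-intermediate cells. The gene was among the leading genes of this cluster although it took no part in the clustering. In thinned mesenchymal-like cells 0.658% and 1.26% had an SLC47A2 UMI, against 6.86% and 6.54% of other cells.

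**Figure D5:**
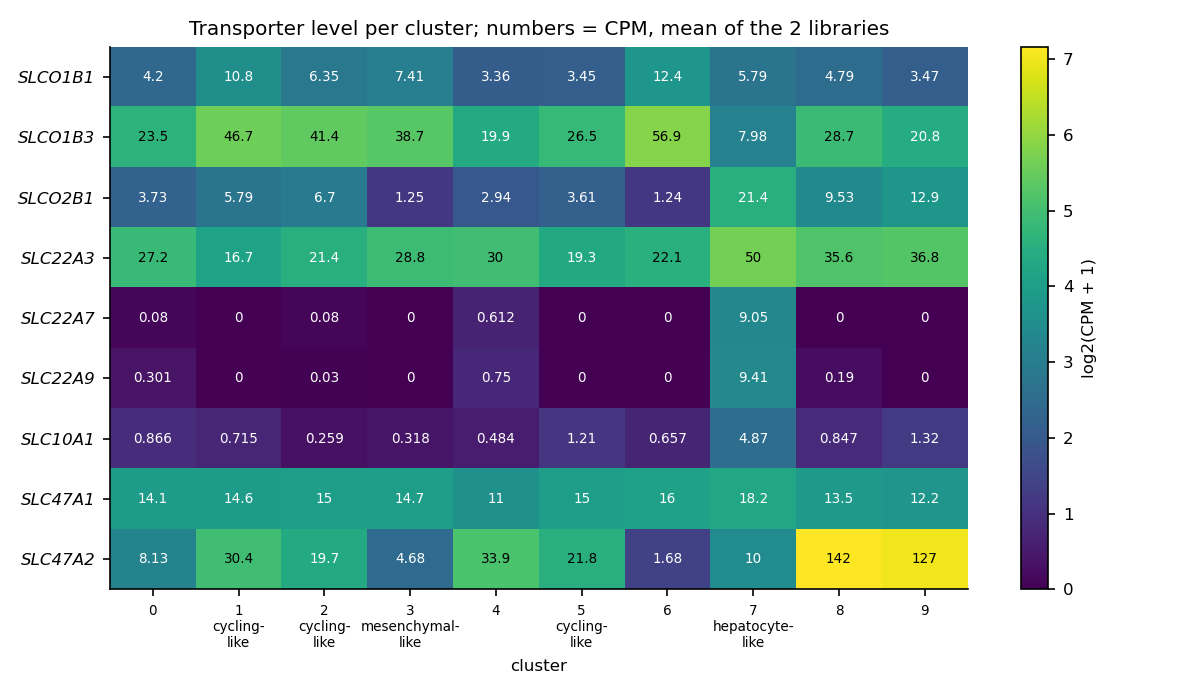
Mean level of each transporter over the 2 libraries in each cluster; colours give log2(CPM + 1) and printed numbers CPM. SLC22A7, SLC22A9, SLC10A1, SLCO2B1 and SLC22A3 peak in the hepatocyte-like cluster 7, SLC47A2 in cluster 8 (142 CPM), and SLCO1B1 and SLCO1B3 in cluster 6 (12.4 and 56.9 CPM).

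Over clusters, SLCO1B3 was highest in cluster 6 (56.9 ± 3.44 CPM), followed by the cycling-like clusters 1 (46.7 ± 1.20 CPM) and 2 (41.4 ± 1.91 CPM) and the mesenchymal-like cluster 3 (38.7 ± 1.55 CPM). Clusters 2 and 3 did not differ beyond their spread, nor did clusters 8 and 5, clusters 0 and 9, or clusters 9 and 4, in a range from 28.7 to 19.9 CPM. Clusters 5 and 0 did not overlap. The hepatocyte-like cluster 7 was lowest, at 7.98 ± 0.54 CPM. Thinned mesenchymal-like cells had an SLCO1B3 UMI in 12.8% and 13.2%, close to the 11.9% and 12.6% of other cells as a whole. SLCO1B1 was likewise highest in cluster 6 (12.4 ± 1.28 CPM) and cluster 1 (10.8 ± 0.75 CPM), which differed by about their spread, with the hepatocyte-like cluster at 5.79 ± 0.68 CPM and the lowest values in clusters 4, 5 and 9, at 3.36, 3.45 and 3.47 CPM, which did not differ beyond their spread.

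The remaining uptake carriers had their highest level in the hepatocyte-like cluster. It held 90.5% and 90.4% of all SLC22A7 UMIs, 86.6% and 83.0% of SLC22A9 UMIs and 29.5% and 33.3% of SLCO2B1 UMIs, with 5.93% and 7.17% of the cells. These shares are not separate from the class results, as most cells of that cluster were ALB-high. SLCO2B1 stood at 21.4 ± 2.30 CPM there, at 9.53 ± 1.60 CPM in cluster 8 and at 12.9 ± 18.2 CPM in the small cluster 9. It was lowest in the clusters with raised mesenchymal markers, at 1.24 and 1.25 CPM. ALB-high cells of cluster 4 (27 and 31 cells) were at 3.33 and 2.56 CPM, against 26.1 and 20.7 CPM in those of cluster 7. SLC22A3 was at 49.97 ± 1.90 CPM in cluster 7 and lowest in the cycling-like cluster 1, at 16.7 ± 0.89 CPM. SLC10A1 reached 4.87 ± 0.17 CPM in cluster 7. SLC47A1 stayed between 11.0 and 18.2 CPM over all 10 clusters.

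Over the 10 clusters, with 9533 genes searched at 20 CPM or more, the genes whose log2(CPM + 1) was most like that of a member were, with Pearson's r, DTNBP1 (0.98), ANKLE2 (0.97) and NAV2 (0.97) for SLCO1B3 and VEPH1 (0.96), BOLA3 (0.95) and PRADC1 (0.94) for SLCO2B1. For SLC22A3 they were LGALS8 (0.97), PLPP3 (0.97) and ADSSL1 (0.96), and for SLC47A2 LINC01508 (0.93), KCNK1 (0.92) and CBR1 (0.92). The other 5 members were below 20 CPM in every cluster. These are descriptions over clusters that share libraries and were picked as the highest of many.

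Other solute carriers gave a similar mixed picture. Of a list of 30, 20 had counts enough to test, and ALB-high against other cells 13 were higher, 3 lower and 4 not called, with a median log2 fold change of 1.04; ALB-intermediate against other it was 6, 2 and 12. Of these 20, the 3 highest passed the filter only through the ALB-high sums, so their calls support nothing. The remaining 17 gave 10 higher, 3 lower and 4 not called for ALB-high against other (median 0.50). Of all genes tested, 32.1% were called higher and 30.2% lower in that comparison. For ALB-intermediate against other these shares were 23.6% and 22.1%. Highest were SLC22A25, a relative of SLC22A9 (6.31 ± 0.57, edgeR adjusted p = 9.5e-12, on few UMIs), SLC28A1, a nucleoside uptake carrier (5.08 ± 0.29, adjusted p = 3.8e-17, 8.96 against 0.317 CPM), and SLC30A10, a manganese exporter (4.85 ± 0.27, adjusted p = 9.4e-18, 9.10 against 0.356 CPM). SLCO1B7, SLC22A4, a carrier of ergothioneine (-0.58 ± 0.20, adjusted p = 0.011), and SLCO3A1, an organic anion carrier (-0.36 ± 0.06, adjusted p = 6.6e-06), were lower.

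Of 11 ABC efflux pumps, which carry solutes onward into bile or blood, 9 were tested. In ALB-high against other cells 7 were higher, 1 lower and 1 not called (median 1.19). ABCG8 passed the filter only through the ALB-high sums, and the remaining 8 gave 6, 1 and 1 (median 1.09). Beside these counts stand 32.1% of all genes tested called higher and 30.2% called lower. ABCG8, part of the sterol pump (6.43 ± 0.25, edgeR adjusted p = 4e-22), ABCB1, the multidrug pump P-glycoprotein (3.33 ± 0.06, adjusted p = 2.5e-31, 114 against 12.7 CPM), and ABCC6 (2.80 ± 0.08, adjusted p = 6.7e-26) had the largest differences, and ABCC1, a pump of the basolateral membrane, was lower (-0.71 ± 0.06, adjusted p = 2.5e-12). Of 22 regulators, 20 were tested, and 16 were higher, 1 lower and 3 not called (median 1.23), beside the same shares of all genes. ESR1 passed only through the ALB-high sums, and the remaining 19 gave 15, 1 and 3 (median 1.21). The liver factor ONECUT1 (8.54 ± 0.18, adjusted p = 4.8e-30), the bile acid receptor NR1H4 (7.12 ± 0.10, adjusted p = 2.6e-36) and the oestrogen receptor ESR1 (3.47 ± 0.29, adjusted p = 9.1e-13) led, and NFE2L2, the factor of the oxidative stress response, was lower (-0.12 ± 0.05, adjusted p = 0.044).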

How the data were processed

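The deposited files hold UMI counts per cell barcode and gene, which the authors made with Cell Ranger 7.0.0, per the file headers; the submitters' processing notes name STAR and the GRCh38 build, and no source used here gives the annotation release, the treatment of intronic reads, a barcode filter or the use of strand. The libraries held 85475317 and 57246647 UMIs over 4591 and 4998 barcodes; 12 antibody features were at 0 UMIs. Barcodes under 500 genes, under 1000 UMIs or over 25% mitochondrial UMIs were dropped. Scrublet marked 4 and 0 barcodes, so it did not work as a doublet filter, and no doublets were removed in the main result. Ambient RNA was not corrected for.

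Raw counts were summed per class and library, which gave 6 sums, and compared with edgeR 4.0.16 (TMM scaling, filterByExpr, quasi-likelihood test, class and library as terms, 2 residual degrees of freedom, Benjamini-Hochberg). ALB, which defines the classes, was not tested. The library number was a block because the classes of a library come from the same capture. The classes were cut from the same counts that were compared, so p-values are smaller than for classes set on other data. Each SE was taken from the log2 fold change and edgeR's F statistic (|log2 fold change| divided by the root of F). The fit was tested on simulated data. Alternatives were no replicate block, other scaling, DESeq2 1.42.0, no filter, thinned cells, other ALB limits, at most 15% mitochondrial UMIs, the top 4% of Scrublet scores left out, cells with 2 or more proliferation-marker UMIs per 10000 left out, and mitochondrial genes and ALB left out. Leaving out the clusters with raised mesenchymal markers was chosen after seeing the data.

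Clusters came from scanpy 1.11.5 (2000 variable genes, 30 components, 15 neighbours, Leiden resolution 0.5) without the genes of all lists, mitochondrial or ribosomal protein genes. A marker was raised at 5 CPM and 2-fold over the median of the other clusters. The rule that turns raised markers into names was settled after the clusters were seen. Gene positions are from GENCODE 29 by gene ID. The members and all lists were chosen with earlier results of these data known. All members are named, and per list the 3 called genes with the largest positive and the 3 with the largest negative log2 fold change in ALB-high against other cells.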

Additional observations from a re-analysis of the deposited data

How the results depend on the processing

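Depth and the number of UMIs limit the members most. With cells thinned to 4000 UMIs, 7 members could be tested (SLC22A9 and SLC10A1 could not): 3 were higher and 1 lower in ALB-high against other, 1 higher in ALB-intermediate against other, and 3 higher and 1 lower in ALB-high against ALB-intermediate. Genes called higher and lower were then 3073 and 2873, 2088 and 1881, and 1268 and 929 in these comparisons, of 12352 tested. Without proliferation-marker cells they were 3217 and 3044, 1518 and 1270, and 1358 and 933. In that setting 2 members were higher in ALB-intermediate against other and 0 lower in ALB-high against ALB-intermediate. It left 173 and 211 ALB-high, 110 and 122 ALB-intermediate and 670 and 684 other cells in replicates 1 and 2. Thinning kept nearly all cells (305 and 402, 409 and 477, and 3676 and 3932 in the same order) but fewer UMIs of each. DESeq2 called 2046 and 1723 genes in ALB-intermediate against other and 1600 and 1361 in ALB-high against ALB-intermediate; the cause was not tested. Without the replicate block 5007 and 4667, 3606 and 3318, and 2510 and 2151 genes were called, and among the members the block decided the ALB-intermediate call of SLC47A1 alone (adjusted p = 0.054 without it).

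Of 144 counts of calls, 121 stayed within 1.5 times the main value. Of 370 log2 fold changes of members, 322 kept their direction and call or, with a library left out, stayed within the SD of the library ratios. A further 22 moved beyond that SD, 16 lost a call and 1 gained one. The other 9 reversed. These were SLCO1B1 in ALB-high against other (0.22 with ALB-high from 100, 0.37 without proliferation-marker cells, 0.12 without the clusters with raised mesenchymal markers) and, in ALB-intermediate against other, SLCO2B1 (-0.15 without proliferation-marker cells, -0.081 without those clusters), SLC10A1 (-0.20 without proliferation-marker cells), SLC47A1 (-0.075 thinned) and SLC47A2 (-0.60 without proliferation-marker cells, -0.26 without those clusters). None of the 9 was a called direction turned into a called opposite. Leaving out a library gives values with no test; in ALB-high against other SLCO1B3 was then -2.18 and -2.14 and SLCO2B1 2.13 and 2.40 as log2 ratios of CPM.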

Other observations

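Detection of 2 members in the same cell was compared with the product of their separate shares, as counts with no test, over 36 pairs in thinned cells. In other cells 13 and 14 cells held both SLCO1B1 and SLCO1B3, where the products gave 9.91 and 11.6. SLC22A3 and SLC47A1 met in 14 and 19 cells against 14.3 and 18.3, and SLC47A1 and SLC47A2 in 9 and 10 cells against 11.9 and 15.2. Over single cells, UGT2B15, an enzyme that conjugates steroids with glucuronic acid, the complement-related CFHR2 and the vitamin D carrier GC had the highest correlations with SLC22A7, at r = 0.46 and 0.27, 0.42 and 0.27, and 0.31 and 0.30 in replicates 1 and 2. For SLC47A2 the highest were the carboxylesterase CES1 at 0.17 and 0.17 and the aldo-keto reductase AKR1C2 at 0.16 and 0.17. The mitochondrial gene MT-ND1 came next, at 0.18 and 0.16. These r are over cells of 1 library each with few UMIs of the member, and weak ones are no finding.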
